A study of Homo sapiens with 12 samples.

Results

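The unmodified transcriptomes of 2 human cancer cell lines were compared: wild-type HCT116, an epithelial line from a colorectal carcinoma, and wild-type U-87 MG, a line derived from a glioblastoma. The comparison used the 6 libraries labelled as wild type, 3 per line, of the 12 in the series. The other 6, 3 per line, came from cells in which GSTO1, the gene of the omega-class glutathione transferase 1, had been knocked out (KO), and they enter only where the line difference in KO cells is given beside the wild-type one. Both parental lines had been made to carry Cas9 by lentivirus and blasticidin selection, and then received a guide RNA against exon 2 of GSTO1 or a non-targeting control, with single colonies picked afterwards. The sources used here do not say whether the libraries labelled wild type came from untreated parental cells or from control-guide cells. HCT116 was obtained from a cell repository and grown in RPMI 1640 with fetal bovine serum. U-87 MG was a gift from another laboratory, and its medium is not stated clearly in the labels. RNA was extracted with TRIzol, and stranded mRNA libraries were sequenced as 50-base reads.

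Read layout differed with the line: HCT116 was read single-end and U-87 MG paired-end, so that layout and line cannot be told apart in any value below. The labels do not say that the 3 libraries of a line were separate cultures, so the spread behind every p-value is that among these libraries and may be technical in origin. Total counts ranged from 21325389 to 26137139 in wild-type HCT116 and from 21414528 to 28097179 in wild-type U-87 MG. Replicate 3 of U-87 MG stood apart from its fellows: its chi-square per degree of freedom over genes was 8.62 and 9.77 against the others, compared with 2.42 between replicates 1 and 2. The mitochondrial ribosomal RNA gene listed as RNR2 took 0.981% to 1.06% of counts in HCT116 and 0.254% to 0.322% in U-87 MG.

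Interferons signal through surface receptors and JAK kinases to STAT and IRF factors, which turn on interferon-stimulated genes; cells without added interferon differ in how much of this programme they keep active. NF-kB is a family of dimeric factors held back by IkB proteins and released by kinases downstream of TNF, interleukin-1 and lymphotoxin receptors. Tissue factor, the product of F3, starts the extrinsic coagulation pathway with factor VII, while tissue factor pathway inhibitor and the plasminogen activators limit or dissolve clots. Glutathione is the main cellular thiol, made from cysteine, glutamate and glycine, conjugated to substrates by glutathione transferases and kept reduced by glutathione reductase. These 4 systems were described in the lines as they stood without the knockout.

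Of 14981 genes tested with edgeR, 8452 were called different between the wild-type lines, which is 56.4% of the genes tested. A gene was called where its Benjamini-Hochberg adjusted p was under 0.05, its fold change was above 1.5 and its mean FPKM was above 0.5 in the higher line. The calls were split nearly evenly, with 4144 genes higher in HCT116 (27.7%) and 4308 higher in U-87 MG (28.8%). More than 4-fold differences were found for 1617 genes higher in HCT116 (10.8%) and 1674 higher in U-87 MG (11.2%). The median log2 fold change over all tested genes, HCT116 minus U-87 MG, was 0.01, and the median of its absolute value was 0.95. Without replicate 3 of U-87 MG, 4185 genes were higher in HCT116 and 4324 higher in U-87 MG. All per-library levels below are CPM, a gene's counts relative to the library size after TMM scaling, log2 values are differences on the scale HCT116 minus U-87 MG, and fold values are their linear form with the standard error (SE) on the log2 scale.

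The line labels were first set against markers. Of 28 epithelial markers tested, 28 were higher in HCT116, with a list median log2 fold change of 8.90. The epithelial markers summed to 5195 to 5456 CPM in the HCT116 libraries and 29.2 to 32.0 CPM in those of U-87 MG. DSP, the desmosomal plaque protein desmoplakin, stood at 444, 442 and 429.5 CPM in HCT116 and at 0.0937, 0.193 and 0.151 CPM in U-87 MG (edgeR log2 fold change 11.48, SE 0.0996, adjusted p = 2.5e-29). KRT8, a keratin of simple epithelia, was at 1678, 1627 and 1741 CPM against 19.9, 19.4 and 17.7 CPM. For KRT8 and for its partner KRT18, 10.1% and 15.01% of the 50-base stretches of their exons also lie at another locus, and genes on the other strand overlap 7.63% and 17.1% of those exons, so that part of their counts depends on how such reads were counted. CDX2, a transcription factor of intestinal epithelium, was at 18.9, 17.5 and 22.4 CPM in HCT116 and had no count in U-87 MG, at least 435.3-fold higher in HCT116. Most other intestinal markers were low in HCT116: of 26 in the list only 6 passed the low-count filter, 2 of them higher in HCT116 and 2 higher in U-87 MG. The latter included the receptor kinase EPHB2, at 30.9 ± 0.467 CPM and 214 ± 1.69 CPM.

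Of 30 mesenchymal markers tested, 25 were higher in U-87 MG and 3 in HCT116, and their sum was 52390 to 54910 CPM in U-87 MG against 944 to 985 CPM in HCT116. FN1, the matrix protein fibronectin, was at 18.1, 17.8 and 18.9 CPM in HCT116 and took 14th place by FPKM in U-87 MG, at 2037 FPKM against 1.91. COL6A3, a chain of collagen VI, was at 1.82, 1.599 and 1.91 CPM in HCT116 and 4520.0, 4707 and 4238 CPM in U-87 MG (edgeR log2 fold change -11.30, SE 0.0735, adjusted p = 2e-31). The 3 markers on the other side were TPM2, a tropomyosin, at 369 ± 11.8 against 28.9 ± 0.564 CPM, SNAI1, a repressor of epithelial genes, at 16.9 ± 1.76 against 0.747 ± 0.187 CPM, and S100A4, whose call was lost without replicate 3 of U-87 MG (log2 fold change 0.57). Of 14 glial and neural markers tested, 10 were higher in U-87 MG and 2 in HCT116, with a median log2 fold change of -1.94, and the list summed to 1308 to 1372 CPM in U-87 MG and 586 to 603 CPM in HCT116. Some genes that define astrocytes and oligodendrocytes were at or near 0: GFAP had 0 counts in HCT116 and 4 in U-87 MG over the 3 libraries, and AQP4, OLIG1 and SOX10 had none. GAP43, a growth-cone protein, was at 33.9, 35.0 and 31.0 CPM in U-87 MG with no count in HCT116 (at least 846.3-fold higher), and the neuronal cytoskeleton gene MAP2 was at 69.4 ± 3.17 against 4.91 ± 0.171 CPM. SOX9, a factor of glia and of intestinal crypts, was higher in HCT116, at 115 ± 0.186 against 43.8 ± 5.57 CPM. Markers of leukocytes summed to 19.8 to 22.5 CPM in HCT116 and 888 to 1013 CPM in U-87 MG. Most of that sum was the class II genes CD74, at 349 ± 21.1 CPM, and HLA-DRA, at 142 ± 0.56 CPM, with CD68, while PTPRC, which defines leukocytes, had 0 and 14 counts. Their part in the interferon values below was not tested.

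**Figure D1:**
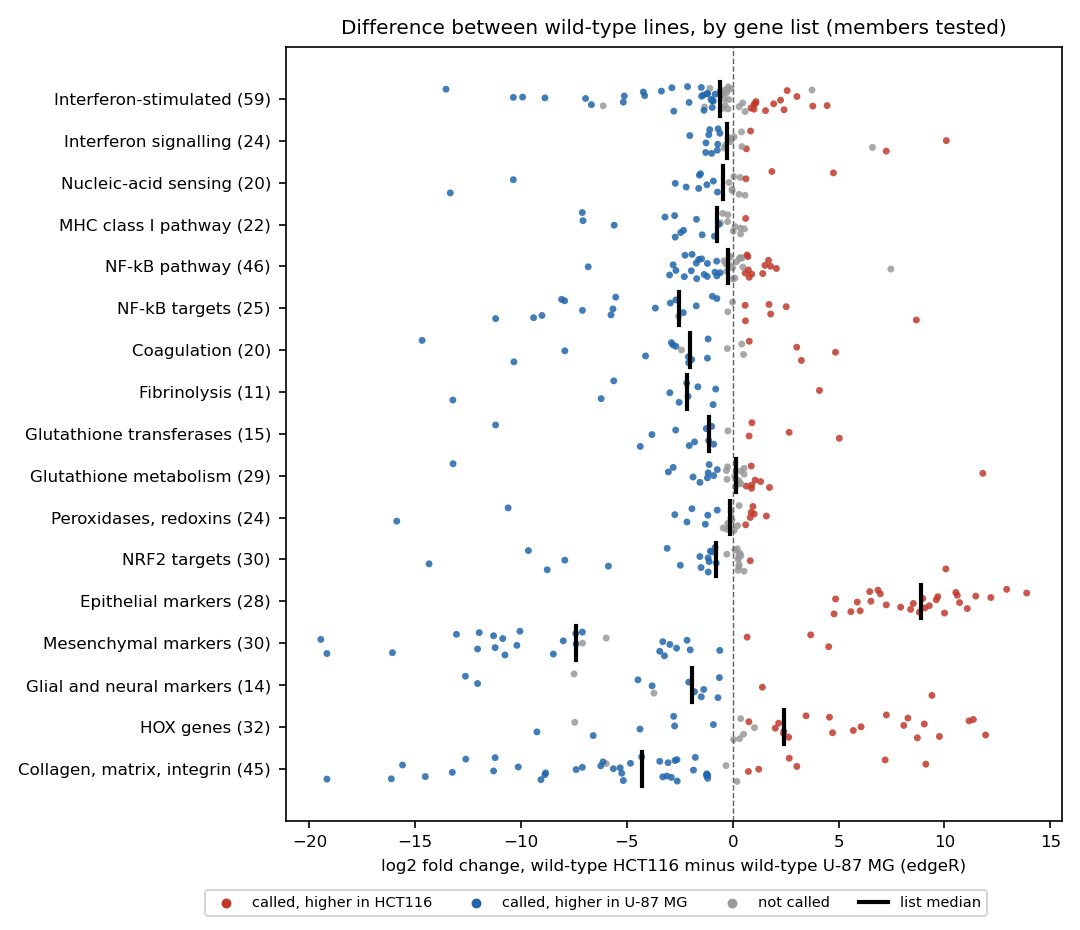
Log2 fold change between wild-type HCT116 and wild-type U-87 MG (horizontal axis; right of 0, higher in HCT116) of each member tested, by gene list with the number tested in brackets; red and blue points are genes called higher in HCT116 or U-87 MG, grey points were not called and black bars are list medians. Epithelial markers lie to the right with a median of 8.90, mesenchymal markers to the left with a median of -7.41, and the interferon, NF-kB, coagulation and glutathione lists spread over both sides.

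Baseline expression of interferon-stimulated genes was split between the lines rather than higher throughout in one. Of 59 interferon-stimulated genes tested, 13 were higher in HCT116, 28 were higher in U-87 MG and 18 were not called, against 27.7% and 28.8% of all genes. Their median log2 fold change was -0.60, beside 0.01 for all genes. Differences above 4-fold were found for 6 in HCT116 and 15 in U-87 MG. Summed over the list the lines stood close together, at 2583 to 2621 CPM in HCT116 and 2746 to 2822 CPM in U-87 MG.

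The motif bound by interferon-activated factors, the interferon-stimulated response element, was searched as GAAA, any 2 bases and GAAA again, on both strands, in the 300 bases around each start site (250 before and 50 after) in RefSeq, GRCh38.p14. Of the 63 interferon-stimulated genes, 49 had an entry, and 34 of these (69.4%) held a match, compared with 4.38% of the 27305 genes with an entry. Genes with a match lay on both sides: of the 34, 10 were higher in HCT116, 10 in U-87 MG, 11 were not called and 3 were not tested. Of the 15 without a match, 1 was higher in HCT116 and 8 in U-87 MG. The windows of 4 genes are shown because they carry the same letters and lay on opposite sides of the comparison: IFI44 and IFI44L, cytoplasmic interferon-induced proteins, were higher in U-87 MG, and ISG15, a ubiquitin-like modifier, and BST2, the virus tether tetherin, were higher in HCT116. Capitals mark each match to the motif or to its reverse complement. The windows were chr1:78649539-78649838 (plus strand) for IFI44, chr1:78620198-78620497 (plus) for IFI44L, chr1:1013247-1013546 (plus) for ISG15 and chr19:17405581-17405880 (minus) for BST2, each written 5′ to 3′ along its gene.
IFI44: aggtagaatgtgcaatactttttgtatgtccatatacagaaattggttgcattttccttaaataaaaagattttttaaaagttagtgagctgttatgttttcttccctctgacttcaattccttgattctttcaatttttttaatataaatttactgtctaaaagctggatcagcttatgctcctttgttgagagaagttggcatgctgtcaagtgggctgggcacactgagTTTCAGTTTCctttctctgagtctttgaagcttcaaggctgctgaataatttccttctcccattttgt
IFI44L: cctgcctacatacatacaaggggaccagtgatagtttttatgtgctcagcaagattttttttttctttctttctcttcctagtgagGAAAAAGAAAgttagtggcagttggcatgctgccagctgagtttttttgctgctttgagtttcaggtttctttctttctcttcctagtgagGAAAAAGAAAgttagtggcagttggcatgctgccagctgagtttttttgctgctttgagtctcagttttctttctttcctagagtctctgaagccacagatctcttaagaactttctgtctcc
ISG15: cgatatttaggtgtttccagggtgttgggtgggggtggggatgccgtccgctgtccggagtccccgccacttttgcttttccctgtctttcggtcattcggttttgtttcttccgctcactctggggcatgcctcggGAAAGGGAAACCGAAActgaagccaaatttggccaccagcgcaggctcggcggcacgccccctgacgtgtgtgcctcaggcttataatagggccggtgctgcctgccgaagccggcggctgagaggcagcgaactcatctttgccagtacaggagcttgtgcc
BST2: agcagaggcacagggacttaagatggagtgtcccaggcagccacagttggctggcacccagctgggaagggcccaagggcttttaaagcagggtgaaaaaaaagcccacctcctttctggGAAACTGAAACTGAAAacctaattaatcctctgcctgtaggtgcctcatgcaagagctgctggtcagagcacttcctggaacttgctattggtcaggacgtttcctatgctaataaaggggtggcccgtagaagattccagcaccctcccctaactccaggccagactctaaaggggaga
The match in IFI44 starts at -18 from the start site, those in IFI44L at -164 and -73, those in ISG15 at -113 and -107 and those in BST2 at -130 and -124. A match describes letters and is not a binding site shown in these cells.

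Among antiviral effectors higher in HCT116, IFITM3, a membrane protein that blocks virus entry, was at 234, 237 and 244 CPM against 35.3, 40.4 and 45.3 CPM in U-87 MG (edgeR log2 fold change 2.57, SE 0.0661, adjusted p = 2.5e-17). All 3 HCT116 libraries lay above all 3 of U-87 MG, although 15.3% of the 50-base stretches of IFITM3 also lie at another locus. ISG15 was at 48.9, 51.5 and 54.7 CPM against 12.2, 11.1 and 9.19 CPM, a 4.78-fold difference. BST2 was at 29.5, 30.2 and 30.6 CPM against 1.55, 1.27 and 1.30 CPM, a 22.0-fold difference (edgeR log2 fold change 4.46, SE 0.118, adjusted p = 1.8e-20). LY6E, a surface protein with effects on virus entry, was 3.81-fold higher in HCT116, at 192 ± 17.0 against 50.7 ± 2.77 CPM (SD, n = 3).

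The genes higher in U-87 MG included several that were close to silent in HCT116. IFI44 was at 0.503, 0.3997 and 0.445 CPM in HCT116 and 46.5, 48.0 and 45.5 CPM in U-87 MG (edgeR log2 fold change -6.68, SE 0.127, adjusted p = 3.3e-23). IFI44L had no count in the 3 HCT116 libraries and 60.8, 61.8 and 66.2 CPM in U-87 MG, at least 1588-fold higher. TRIM22, an antiviral ubiquitin ligase, was at 0.464, 0.472 and 0.489 CPM against 57.8, 63.7 and 57.7 CPM; another gene of its strand overlaps 5.11% of its exons. In each of these genes the lines were separated by far more than their replicates. SAMD9L, a restriction factor, had 3 counts in HCT116 and 2936 in U-87 MG, a ratio of 1105 with a 95% counting interval of 377.9 to 5363. SLFN5, a member of the Schlafen family, was at 20.1, 22.1 and 19.96 CPM against 215, 208 and 225 CPM, a 10.3-fold difference (edgeR adjusted p = 3.2e-24). ADAR, the RNA editing enzyme, was at 437, 434 and 432 against 292, 298 and 285 CPM and lay just under the fold limit, with a log2 fold change of 0.58. It passed that limit with RLE scaling (0.59) and with DESeq2 (0.60).

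Of 24 interferon signalling genes tested, 4 were higher in HCT116, 10 were higher in U-87 MG and 10 were not called, so that 58.3% were called, beside 56.4% of all genes, with a median log2 fold change of -0.28. With library totals or upper-quartile factors in place of TMM scaling, 6 were higher in U-87 MG. IFNAR1, a chain of the type I interferon receptor, was at 50.9, 50.1 and 45.8 CPM in HCT116 and 99.7, 98.1 and 96.3 CPM in U-87 MG. IL10RB, the shared chain of the type III interferon and interleukin-10 receptors, was 4.09-fold higher in U-87 MG, at 72.5 ± 0.587 against 17.6 ± 0.763 CPM. JAK1, the kinase of all 3 interferon receptor types, was 2.40-fold higher in U-87 MG, at 262 ± 7.15 against 108 ± 4.07 CPM. By contrast IFNLR1, the specific chain of the type III receptor, was at 18.7, 15.01 and 16.1 CPM in HCT116 and 0.187, 0.0772 and 0.0502 CPM in U-87 MG (edgeR log2 fold change 7.25, SE 0.243, adjusted p = 1.8e-18). The chains of this receptor thus lay on opposite sides of the comparison. PTPN6, a phosphatase that dampens cytokine receptors, was at 40.8, 36.2 and 37.0 CPM in HCT116 and had 2 counts in U-87 MG, a ratio of 1276 with a 95% counting interval of 352.9 to 10540. IRF7, a factor that amplifies type I interferon genes, was at 5.94 ± 0.172 against 3.80 ± 0.423 CPM. Without replicate 3 of U-87 MG its log2 fold change of 0.64 dropped to 0.56, under the fold limit. The ligand genes IFNA1, IFNB1, IFNK and IFNL3 had no count in any of the 6 libraries.

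Sensors of foreign nucleic acid differed in kind as well as in level. Of 20 tested, 3 were higher in HCT116, 10 were higher in U-87 MG and 7 were not called. The share called was 65.0%, beside 56.4% of all genes. MAVS, the mitochondrial adaptor of the RNA sensors, was at 346, 338 and 326 CPM in HCT116 and 93.2, 96.9 and 91.3 CPM in U-87 MG (edgeR log2 fold change 1.85, SE 0.0449, adjusted p = 3.4e-21). DDX58, the RNA sensor RIG-I that signals through MAVS, was higher in the other line, at 11.9, 13.5 and 13.1 CPM against 39.9, 35.8 and 35.5 CPM. TMEM173, the adaptor STING of the cytosolic DNA pathway, was at 16.3, 17.1 and 18.8 CPM in HCT116 and 0.656, 0.386 and 0.954 CPM in U-87 MG. The sensor upstream of STING, cGAS, listed as MB21D1, had 0 counts in HCT116 and 1 in U-87 MG. IFI16, a nuclear DNA sensor, had 1 count in HCT116 and was at 184, 189 and 205 CPM in U-87 MG. AIM2, the DNA sensor of the inflammasome, had no count in HCT116 and 6.56, 6.83 and 7.43 CPM in U-87 MG, at least 175.1-fold higher. The kinase gene IKBKE was 4.60-fold higher in U-87 MG, at 32.8 ± 1.75 against 7.09 ± 0.977 CPM, while DDX41, another sensor, was not called (log2 fold change -0.03).

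MHC class I presents peptides to T cells, and interferon induces many of its genes. Of 22 genes of this pathway tested, 12 were higher in U-87 MG, 1 in HCT116 and 9 were not called, beside 28.8% and 27.7% of all genes, with a median log2 fold change of -0.76. B2M, the common light chain, was at 269.6, 269.6 and 257 CPM in HCT116 and 1865, 1786 and 1620.0 CPM in U-87 MG (edgeR log2 fold change -2.72, SE 0.0489, adjusted p = 4.8e-23). By FPKM, B2M ranked 196th among protein-coding genes in HCT116 and 21st in U-87 MG. The aminopeptidase gene ERAP2, which trims peptides, was at 2.40, 2.76 and 2.85 CPM against 133, 127 and 131 CPM. PSMB8, a subunit of the immunoproteasome, was at 0.193, 0.3997 and 0.356 CPM against 41.5, 47.9 and 41.0 CPM; a gene on the other strand overlaps 17.3% of its exons. NLRC5, the class I transactivator, was 9.19-fold higher in U-87 MG, at 75.9 ± 2.96 against 8.25 ± 0.793 CPM. The member on the other side was the peptide transporter subunit TAP2, at 88.4 ± 2.83 against 58.1 ± 4.72 CPM. Its call was lost without replicate 1 of U-87 MG (log2 fold change 0.58) and without replicate 3 (0.57).

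**Figure D2:**
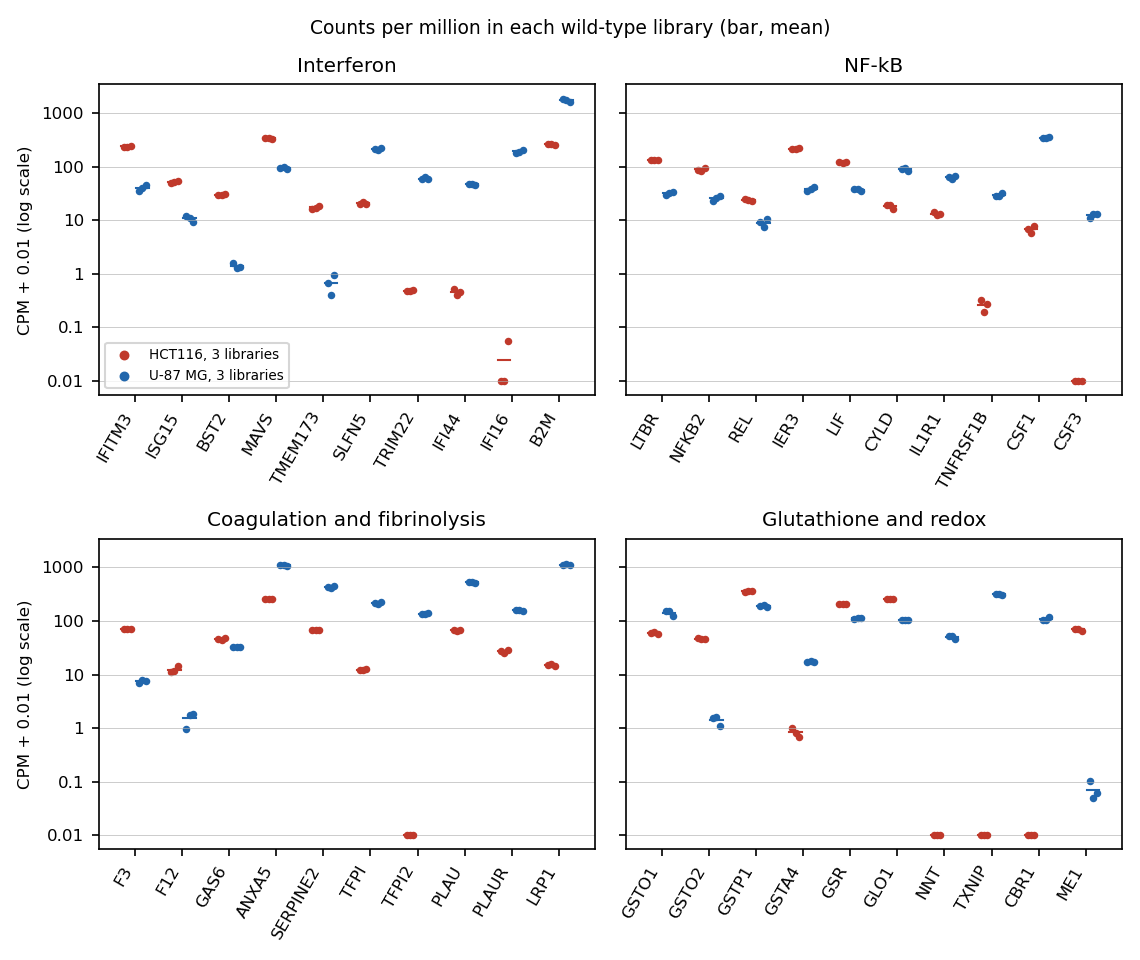
Scaled CPM plus 0.01 (vertical axis, log scale) of 40 genes in each of the 3 wild-type HCT116 libraries (red) and the 3 wild-type U-87 MG libraries (blue), with short bars at the means, in panels for interferon, NF-kB, coagulation with fibrinolysis, and glutathione with redox genes. The points of the lines do not overlap for any gene drawn; F3 stands at 69.5 to 71.8 CPM in HCT116 and 6.93 to 7.87 CPM in U-87 MG, while LRP1 averages 1126 CPM in U-87 MG.

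In the NF-kB system some subunits of both the canonical and noncanonical arms were higher in HCT116, and most target genes were higher in U-87 MG. Of 46 pathway genes tested, 11 were higher in HCT116, 19 were higher in U-87 MG and 16 were not called. That is 65.2% called, beside 56.4% of all genes, with a median log2 fold change of -0.23. Among receptors, LTBR, the lymphotoxin beta receptor that feeds the noncanonical arm, was at 134, 131 and 133 CPM in HCT116 and 30.1, 32.7 and 33.1 CPM in U-87 MG (edgeR log2 fold change 2.06, SE 0.0538, adjusted p = 1.3e-20); 6.86% of its exons are overlapped by a gene on the other strand. NFKB2, the precursor of the noncanonical subunit p52, was at 87.8, 82.4 and 95.8 CPM against 22.5, 26.0 and 28.7 CPM, 3.46-fold higher in HCT116. REL, the subunit c-Rel, was at 24.4, 24.1 and 22.4 CPM against 9.09, 7.33 and 10.5 CPM; another locus shares 5.89% of its 50-base stretches. NFKB1, the precursor of the canonical subunit p50, was 1.64-fold higher in HCT116, at 71.6 ± 3.68 against 43.8 ± 1.70 CPM. RELB, the partner of p52, was not called, at 8.46 ± 0.373 against 8.59 ± 0.926 CPM. Nor was MAP3K14, the kinase of the noncanonical arm, called (log2 fold change 0.10).

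The receptors for TNF and interleukin-1 were higher in U-87 MG or not called. TNFRSF1B, the second TNF receptor, was at 0.309, 0.182 and 0.267 CPM in HCT116 and 27.8, 28.1 and 31.9 CPM in U-87 MG (edgeR log2 fold change -6.83, SE 0.169, adjusted p = 4.9e-21). TNFRSF1A, the widely expressed TNF receptor, stood at 117 ± 3.55 and 128 ± 7.35 CPM and was not called. IL1R1, the signalling receptor of interleukin-1, was at 14, 12.4 and 13.3 CPM against 63.0, 59.9 and 67.9 CPM. Downstream of it, the kinase gene IRAK1 was 2.55-fold higher in U-87 MG, at 424 ± 9.79 against 166 ± 9.04 CPM. CYLD, a deubiquitinase that restrains NF-kB, was also higher in U-87 MG, at 89.4 ± 4.72 against 18.2 ± 1.95 CPM.

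Of 25 NF-kB target genes tested, 16 were higher in U-87 MG, 6 in HCT116 and 3 were not called. Their median log2 fold change was -2.56, and 13 of the 25 were more than 4-fold higher in U-87 MG, beside 11.2% of all genes tested. CSF1, the macrophage growth factor, was at 6.92, 5.81 and 7.87 CPM in HCT116 and 337, 344 and 358 CPM in U-87 MG (edgeR log2 fold change -5.66, SE 0.0717, adjusted p = 1.7e-25). CSF3, the neutrophil growth factor, had no count in HCT116 and 11.1, 13.1 and 13 CPM in U-87 MG, at least 313.6-fold higher. C3, the central complement protein, was at 0.851, 1.13 and 0.711 CPM against 46.6, 49.3 and 52.6 CPM. These secreted factors were all on the U-87 MG side, as was PTX3, an acute-phase pattern recognition protein, at 39.5 ± 0.758 against 0.0500 ± 0.0434 CPM. On the HCT116 side were IER3, an early stress-response gene, at 218, 210.2 and 227 CPM against 35.2, 38.1 and 41.1 CPM (6.30% of its exons overlapped on the other strand), and the cytokine LIF, at 122, 119 and 120.3 CPM against 37.5, 37.5 and 35.6 CPM. A form of the NF-kB motif, GGGA, any 2 bases and TTCC on either strand, was found in 10 of the 28 targets with a promoter entry (35.7%) and in 1.97% of all genes with one. Of those 10, 2 were higher in HCT116, 4 were higher in U-87 MG and 4 were not tested.

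The gene of tissue factor, which initiates coagulation, lay on the opposite side from those of the inhibitors TFPI and TFPI2. F3 (chr1:94529173-94541759, minus strand, GRCh38), which encodes tissue factor, was at 69.9, 69.5 and 71.8 CPM in HCT116 and 6.93, 7.87 and 7.53 CPM in U-87 MG (edgeR log2 fold change 3.24, SE 0.0737, adjusted p = 9.7e-22). The difference of 9.47-fold was far above the spread within either line. TFPI, the inhibitor of tissue factor and factor X, was at 12.3, 12.1 and 12.4 CPM against 213, 208 and 221 CPM, 17.4-fold higher in U-87 MG (edgeR adjusted p = 7.7e-26). TFPI2, a related inhibitor, had no count in HCT116 and 138, 135 and 140.1 CPM in U-87 MG, at least 3476-fold higher. HCT116 thus had more tissue factor transcript and less of both inhibitors.

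Of 20 coagulation genes tested, 4 were higher in HCT116, 12 were higher in U-87 MG and 4 were not called. The share called was 80.0%, beside 56.4% of all genes, and the median log2 fold change was -2.01. Beside F3, the genes higher in HCT116 were F12, the contact-phase factor XII, at 11.1, 11.6 and 14.4 against 0.937, 1.74 and 1.86 CPM, SERPINA5, the protein C inhibitor, at 2.71 ± 0.268 against 0.0937 ± 0.162 CPM, and F2RL1, a protease-activated receptor cut by the tissue factor complex, at 126 ± 5.94 against 73.6 ± 3.62 CPM. For F12, 7.06% of exon bases are overlapped by a gene on the other strand. The genes higher in U-87 MG were not only inhibitors. F8, coagulation factor VIII, was 7.08-fold higher there, at 28.3 ± 1.17 against 3.95 ± 0.575 CPM. F2R, a thrombin receptor, was 4.28-fold higher, at 131 ± 2.16 against 30.4 ± 1.09 CPM. SERPINE2, a thrombin inhibitor at the cell surface, was 6.43-fold higher in U-87 MG, at 432 ± 14.5 against 66.9 ± 0.649 CPM. ANXA5, which covers the phosphatidylserine that clotting complexes need, was 4.24-fold higher there, at 1099 ± 29.9 against 258 ± 2.54 CPM. GAS6, a vitamin K-dependent ligand of TAM receptors, was 1.43-fold higher in HCT116, at 45.7, 44.2 and 49.0 against 32.3, 32.5 and 33.0 CPM, and was not called; 6.999% of its exons are overlapped by a gene on the other strand. It passed the fold limit with upper-quartile scaling (log2 fold change 0.65) and with library totals (0.69).

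Fibrinolysis genes were higher in U-87 MG in 10 of 11 cases, beside 28.8% of all genes, with a median log2 fold change of -2.18. PLAU, the urokinase plasminogen activator, was at 67.2, 64.9 and 68.0 CPM in HCT116 and 531, 542 and 504 CPM in U-87 MG, although 31.0% of its exons are overlapped by a gene on the other strand. PLAUR, the urokinase receptor, was 5.80-fold higher in U-87 MG, at 158 ± 3.60 against 27.2 ± 1.82 CPM. LRP1, the endocytic receptor that clears protease and inhibitor complexes, was at 14.8, 15.9 and 14.4 CPM against 1099, 1154 and 1126 CPM (edgeR log2 fold change -6.22, SE 0.0546, adjusted p = 2.9e-29). The exception was SERPINF2, the plasmin inhibitor, low in both lines at 2.11 ± 0.105 and 0.118 ± 0.105 CPM. It did not pass when the FPKM limit was applied to the mean of all 6 libraries.

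GSTO1 (chr10:104235356-104267459, plus strand), the gene knocked out elsewhere in the series, was 2.38-fold higher in wild-type U-87 MG. Its levels were 60.03, 61.0 and 57.8 CPM in HCT116 and 152, 151 and 124 CPM in U-87 MG (edgeR log2 fold change -1.25, SE 0.0663, adjusted p = 3.5e-12). Its neighbour and paralog GSTO2 (chr10:104268873-104304950, plus strand) went the other way, at 47.9, 46.1 and 45.9 CPM against 1.55, 1.58 and 1.10 CPM (edgeR log2 fold change 5.03, SE 0.111, adjusted p = 5.1e-22). No 50-base stretch of GSTO2 and 1.80% of those of GSTO1 were shared with another locus. Per length, HCT116 had 62.6 FPKM of GSTO1 and 43.7 FPKM of GSTO2, and U-87 MG had 142 and 0.916 FPKM. In the KO cells GSTO1 transcripts stood at 14.9 CPM in HCT116 and 26.1 CPM in U-87 MG on average.

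Across the glutathione transferases, 10 of 15 tested were higher in U-87 MG, 4 were higher in HCT116 and 1 was not called. That is 93.3% called, beside 56.4% of all genes, with a median log2 fold change of -1.14. GSTP1, the pi-class enzyme that is abundant in many tumours, was at 352, 355 and 361 CPM in HCT116 and 194, 196 and 183 CPM in U-87 MG. GSTA4, which conjugates lipid aldehydes, was at 1.01, 0.799 and 0.667 CPM against 17.2, 17.8 and 16.9 CPM (edgeR log2 fold change -4.37, SE 0.147, adjusted p = 2e-18). MGST3, a microsomal transferase, was 4.16-fold higher in U-87 MG, at 151 ± 13 against 36.3 ± 2.03 CPM, and PTGES, a microsomal prostaglandin synthase of the same superfamily, was 6.49-fold higher, at 112 ± 3.46 against 17.2 ± 0.807 CPM. GSTM1 had no count in HCT116 and 12.4 ± 1.20 CPM in U-87 MG, but 17.7% of its 50-base stretches lie in another locus, and its deposited FPKM in HCT116 was 0.374 on average. GSTT2 was called higher in HCT116 on 73 against 10 counts, with 85.1% of its stretches shared.

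Genes of glutathione synthesis and recycling leaned to neither line, with extremes at both ends. Of 29 glutathione metabolism genes tested, 8 were higher in HCT116, 10 were higher in U-87 MG and 11 were not called. That is 62.1% called, beside 56.4% of all genes, with a median log2 fold change of 0.14. The synthesis enzymes GCLC and GCLM and the cystine carrier SLC7A11 were not called, with log2 fold changes of 0.53, 0.38 and 0.29. A further synthesis enzyme, GSS, was called 1.87-fold higher in U-87 MG, at 162 ± 9.19 against 86.4 ± 3.42 CPM. GSR, which reduces oxidised glutathione, was at 204, 204 and 206 CPM in HCT116 and 108, 113 and 115 CPM in U-87 MG. GLO1, the glutathione-dependent enzyme that removes methylglyoxal, was 2.49-fold higher in HCT116, at 259.8 ± 1.63 against 105 ± 1.15 CPM. OPLAH, which returns oxoproline to glutamate, was at 17.7, 19.2 and 19.7 CPM in HCT116 and had no count in U-87 MG, at least 421.7-fold higher. NNT, the mitochondrial transhydrogenase that supplies NADPH for glutathione reduction, showed the opposite, with no count in HCT116 and 51.2, 52.8 and 45.6 CPM in U-87 MG, at least 1269-fold higher. GGT7, a gamma-glutamyl transferase family member, and SLC1A1, a glutamate and cysteine carrier, were 8.24-fold and 7.03-fold higher in U-87 MG.

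Of 24 peroxidase and redoxin genes tested, 6 were higher in HCT116 and 8 in U-87 MG, with a median log2 fold change of -0.13. The share called, 58.3%, was close to the 56.4% of all genes. PRDX2, a cytosolic peroxiredoxin, was at 203, 217 and 225 CPM in HCT116 and 71.3, 72.9 and 71.0 CPM in U-87 MG, and GPX4, which reduces lipid peroxides, was 1.82-fold higher in HCT116, at 287 ± 13.2 against 158 ± 4.81 CPM. TXNIP, a thioredoxin-binding protein induced by glucose, had no count in HCT116 and was at 314, 322 and 311 CPM in U-87 MG, at least 7991-fold higher. Thioredoxin itself, TXN, was not called, at 239 ± 13.6 and 271 ± 23.6 CPM.

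Of 30 NRF2 targets tested, 2 were higher in HCT116, 16 were higher in U-87 MG and 12 were not called. The share called in either direction was close to the 56.4% of all genes. Among all genes tested, 27.7% were higher in HCT116 and 28.8% in U-87 MG. When genes with more than 5% of their 50-base stretches at another locus were left out, 10 targets were higher in U-87 MG. Listed targets with such stretches were then no longer tested, so the smaller number need not mean that calls were lost. NFE2L2, which encodes NRF2, and its repressor KEAP1 were not called, with log2 fold changes of 0.34 and 0.10. HMOX1, the haem-degrading enzyme, was 5.56-fold higher in U-87 MG, at 125 ± 3.49 against 22.3 ± 0.795 CPM. ME1, a cytosolic enzyme that makes NADPH, was at 70.8, 71.8 and 65.1 CPM in HCT116 and 0.0937, 0.0386 and 0.0502 CPM in U-87 MG (edgeR log2 fold change 10.07, SE 0.165, adjusted p = 2e-24). CBR1, a carbonyl reductase, showed the reverse, with no count in HCT116 and 105, 104 and 119.9 CPM in U-87 MG, at least 2759-fold higher. Their windows are shown because both carry the core of the antioxidant response element, searched as TGACNNNGC on both strands, N being any base, and marked by capitals, while their levels were at opposite extremes. The windows are chr6:83431002-83431301 (minus strand) for ME1 and chr21:36069774-36070073 (plus strand) for CBR1, from RefSeq, GRCh38.p14.
ME1: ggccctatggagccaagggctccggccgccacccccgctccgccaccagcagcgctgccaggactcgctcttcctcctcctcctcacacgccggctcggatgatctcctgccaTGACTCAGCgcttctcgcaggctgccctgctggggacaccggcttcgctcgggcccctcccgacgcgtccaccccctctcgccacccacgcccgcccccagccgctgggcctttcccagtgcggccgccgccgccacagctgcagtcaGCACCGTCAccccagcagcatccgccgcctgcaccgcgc
CBR1: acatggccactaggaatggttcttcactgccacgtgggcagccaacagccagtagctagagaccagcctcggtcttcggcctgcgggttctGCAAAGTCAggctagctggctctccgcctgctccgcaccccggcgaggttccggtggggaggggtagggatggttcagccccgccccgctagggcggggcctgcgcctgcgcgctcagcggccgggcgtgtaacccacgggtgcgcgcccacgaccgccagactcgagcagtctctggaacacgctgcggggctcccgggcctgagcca
The matches start at -137 and 11 in ME1 and at -159 in CBR1. The core was found in 8 of the 24 NRF2 targets with an entry (33.3%) and in 16.1% of all genes with one.

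Several large differences lay outside these systems. MMP2, a gelatinase, had no count in HCT116 and 3683, 3832 and 3872 CPM in U-87 MG, and COL1A2, a chain of collagen I, had none against 3180.0, 3355 and 2792 CPM. Of 45 collagen, matrix and integrin genes tested, 93.3% were called, beside 56.4% of all genes. Of these 45, 36 were higher in U-87 MG and 6 in HCT116. The latter included ITGB4 and ITGA6, the chains of the hemidesmosome integrin of epithelia, at 457 ± 7.50 against 0.799 ± 0.212 CPM and 155 ± 2.44 against 19.1 ± 0.848 CPM. The signalling ligand WNT5A had no count in HCT116 and 469, 464 and 489 CPM in U-87 MG. MAGEB2, a cancer-testis antigen on the X chromosome, was at 168, 168 and 165 CPM in HCT116 against no count in U-87 MG, at least 3736-fold higher. ANO1, a chloride channel, was at 93.0, 93.7 and 93.3 CPM in HCT116 with no count in U-87 MG. TMPRSS15, the duodenal protease enteropeptidase, was found in the glioblastoma line, at 311, 320.1 and 314 CPM, and had no count in the colorectal line.

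Genes known to be altered in these lines were examined as a check on identity. CDKN2A (chr9:21967752-21995301, minus strand), which encodes the cell-cycle inhibitors p16 and p14ARF, was at 46.9, 48.3 and 55.2 CPM in HCT116 and had no count in U-87 MG, at least 1117-fold higher, with 15.3% of its exons overlapped by a gene on the other strand. Of 35 annotated genes within 2 Mb on either side that were in the count table, 9 had more than 10 counts in HCT116, and all 9 had at most 6 counts in U-87 MG. Among them MTAP, an enzyme of methionine salvage, had 22623 counts in HCT116 and 3 in U-87 MG, FOCAD had 4416 and 2, KLHL9 had 3392 and 6, and CDKN2B had 626 and 0. The run of near-zero genes in U-87 MG reached at least from MLLT3, with 413 and 0 counts, to CDKN2B. MLLT3 is the outermost gene of the window on its side, so the end of the run there was not seen. On the other side, beyond CDKN2B, ELAVL2 had 0 counts in HCT116 and 361 in U-87 MG. The 16 interferon genes of types alpha, beta and omega that lie in this stretch had no count in either line. IFNE, an interferon of mucosal epithelia in the same stretch, had 38 counts in HCT116 and 0 in U-87 MG.

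**Figure D3:**
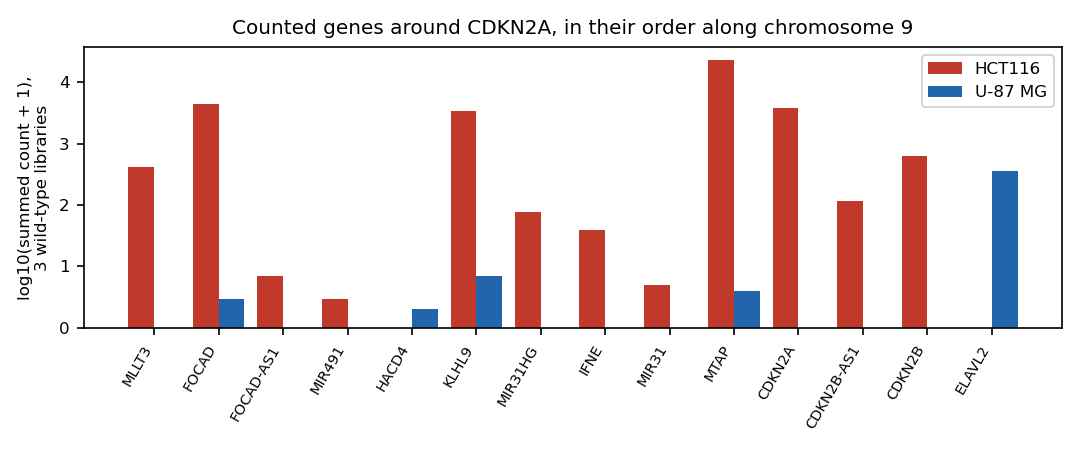
Summed counts over 3 wild-type libraries, as log10(count + 1), of the 14 genes within 2 Mb of CDKN2A that had a count in either line, in chromosome order (horizontal axis); red bars are HCT116 and blue bars U-87 MG. From MLLT3 to CDKN2B the U-87 MG bars are absent or stand for at most 6 counts, and ELAVL2 is counted in U-87 MG with 361 counts and in HCT116 with 0.

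Elsewhere among these genes, CDKN2C, another inhibitor of the cyclin D kinases, was at 12.1, 12.6 and 13.3 CPM in HCT116 with no count in U-87 MG. MGMT, which repairs alkylated guanine, had 693 counts in HCT116 and 2 in U-87 MG, a ratio of 306.8 with a 95% counting interval of 84.61 to 2538. CDKN1A, an inhibitor of cyclin-dependent kinases, was 1.72-fold higher in HCT116. CTNNB1, which encodes beta-catenin, was not called (log2 fold change -0.47). With 58.8% called, beside 56.4% of all genes, 6 of 17 Wnt target genes tested were higher in HCT116 and 4 in U-87 MG. MYC, one of the former, was at 464, 461 and 479.8 CPM against 62.7, 68.3 and 68.7 CPM, and LEF1, one of the latter, had no count in HCT116 and was at 14.5 ± 1.23 CPM in U-87 MG.

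Positional identity genes also separated the lines. Of 32 HOX genes tested, 20 were higher in HCT116 and 6 in U-87 MG, with a median log2 fold change of 2.41. The share called was 81.2%, beside 56.4% of all genes. HOXB8 was at 55.4, 54.5 and 58.4 CPM in HCT116 and 0.0468, 0.0772 and 0.0502 CPM in U-87 MG, and HOXB9 had 3490 counts against 1. HOXD13, the most distal gene of the D cluster, had no count in HCT116 and was at 2.58, 3.40 and 3.62 CPM in U-87 MG.

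By chromosome the share of genes called in each direction varied. On chromosome 19, 40.2% of 996 tested genes were higher in HCT116 and 18.5% higher in U-87 MG, with a median log2 fold change of 0.44, and on chromosome 17 the shares were 37.7% and 19.8%. The order was opposite on chromosome 14, with 21.0% and 42.2% of 476 genes and a median of -0.46, and on the X chromosome, with 19.3% and 39.9% of 471 genes. Copy number was not measured, and genes are not independent replicates.

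**Figure D4:**
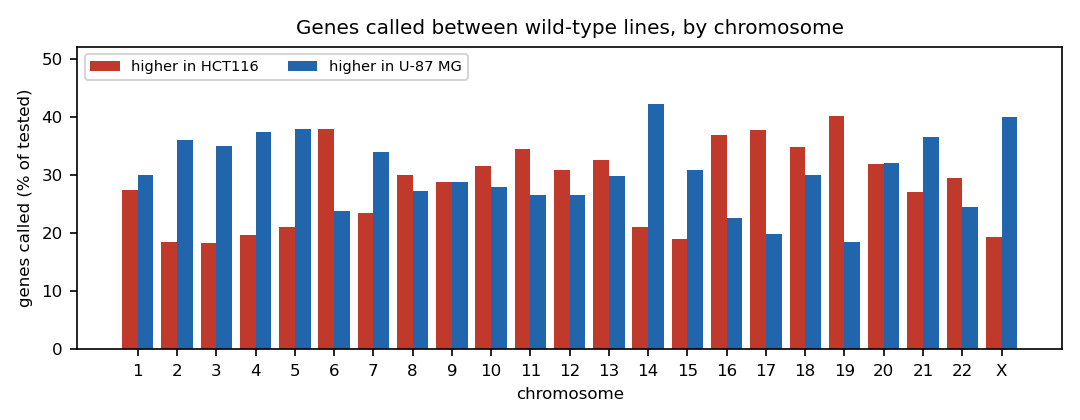
Percent of tested genes called higher in HCT116 (red) or in U-87 MG (blue) on each chromosome (horizontal axis). Red exceeds blue most on chromosome 19, at 40.2% against 18.5%, and blue exceeds red most on chromosome 14, at 42.2% against 21.0%, and on X, at 39.9% against 19.3%.

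The line difference was then set beside that of the GSTO1 KO cells, which share no library with the wild-type comparison. In KO cells 8897 of 15061 genes tested were called between the lines (59.1%). Of 14639 genes tested in both comparisons, 7219 were called in the same direction, which is 86.4% of the wild-type calls and 82.2% of the KO calls, and 57 were called in opposite directions. Of 3211 wild-type differences above 4-fold, 3092 (96.3%) were called in the same direction in KO cells. The change of the line difference with knockout, tested as an interaction over all 12 libraries, was called for 2690 of 15613 genes (17.2%). Among the 312 genes of the 4 systems it was called for 128, or 41.0%. These lists were chosen with earlier results of these data known, so their shares here and below are descriptions. They cannot show that the change is concentrated in these systems.

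Interferon-stimulated genes made up much of that count: the interaction was called for 43 of 59, and in all of the 43 except BST2 the difference lay further towards HCT116 in KO cells. The list's median log2 fold change between lines was -0.60 in wild-type cells and 0.62 in KO cells. OAS3, which makes the activator of the antiviral nuclease RNase L, was at 115 ± 3.59 CPM in wild-type HCT116 and 54.1 ± 1.75 CPM in wild-type U-87 MG, and averaged 385 and 41.0 CPM in the KO cells. IFI6, a mitochondrial interferon-induced protein, was not called between wild-type lines, at 8.57 ± 0.705 and 11.3 ± 1.66 CPM, and averaged 139 and 23.9 CPM in the KO cells. IRF9, the DNA-binding subunit of the factor complex activated by type I interferon, was at 16.6, 17.0 and 16.8 CPM in wild-type HCT116 and 25.9, 23.6 and 28.0 CPM in wild-type U-87 MG, and averaged 73.3 and 17.4 CPM in the KO cells. Its wild-type log2 fold change of -0.61 fell short of the limit without replicate 1 of HCT116 (-0.58), without replicate 3 of U-87 MG (-0.54) and with library totals (-0.43). In all 3 genes the average level in HCT116 was above that of the wild type once GSTO1 was knocked out; the KO cells grew from single colonies, so that clone and knockout cannot be told apart.

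For the other systems the interaction was called for 15 of 28 NF-kB targets, 14 of 47 NF-kB pathway genes, 4 of 21 coagulation genes, 5 of 11 fibrinolysis genes, 4 of 15 glutathione transferases, 12 of 30 glutathione metabolism genes, 5 of 24 peroxidases and redoxins and 6 of 30 NRF2 targets, read against 17.2% of all genes. Of these calls, 0, 1, 1, 0, 1, 3, 3 and 3, in that order of lists, lay further towards U-87 MG in KO cells. The others lay further towards HCT116, so that direction was not particular to interferon-stimulated genes. The F3 difference was called in both wild-type and KO cells, with 23.3 and 3.37 CPM in the KO cells, and its interaction was not called (log2 difference 0.47, edgeR adjusted p = 0.014, below the 1.5-fold limit). The GSTO2 difference was also called in both, at 49.6 against 1.97 CPM. Coagulation held the largest change of the 6 examined, GAS6, which averaged 45.8 CPM in KO HCT116 and 0.170 CPM in KO U-87 MG. TFPI was 28.0 against 144 CPM in KO cells, and its interaction was called (log2 difference -1.76, edgeR adjusted p = 2.8e-17). CSF1, whose interaction was not called, was 12.1 against 464 CPM.

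**Figure D5:**
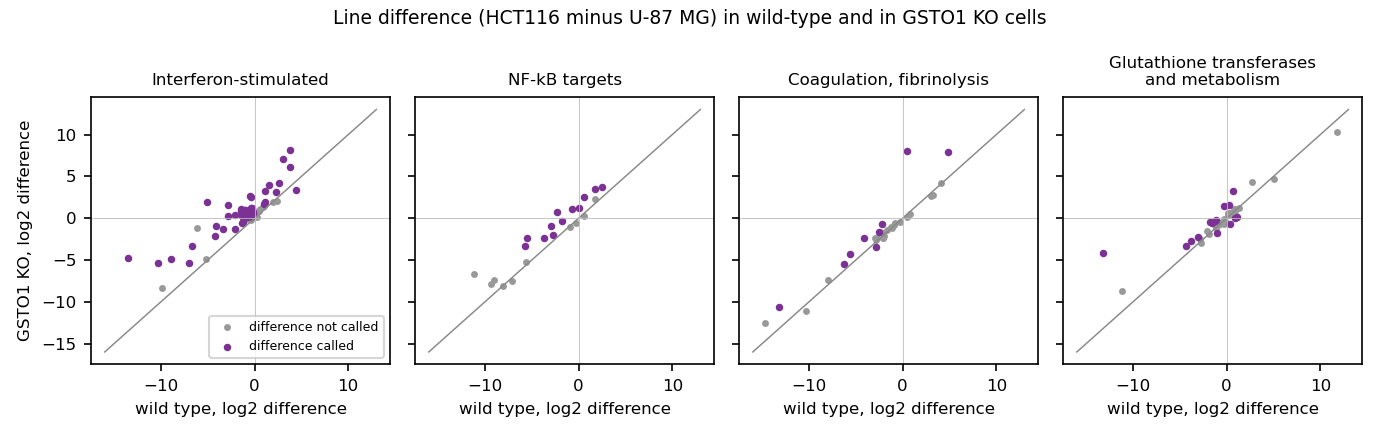
Log2 difference between the lines (HCT116 minus U-87 MG) in wild-type cells (horizontal axis) and in GSTO1 KO cells (vertical axis) for each gene of 4 groups of lists; the diagonal marks equal differences and purple points are genes whose difference was called changed. Most interferon-stimulated genes lie above the diagonal, with 43 of 59 called, whereas most coagulation and fibrinolysis genes lie near it apart from GAS6 and SERPINA5.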

How the data were processed

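RNA-seq of 3 wild-type libraries each of HCT116 and U-87 MG was analysed; 6 GSTO1 KO libraries served for comparison. Per the submitters' processing notes, STAR 2.5.2, featureCounts 1.6.1, Cufflinks 2.2.1 and GRCh38 were used. The authors deposited whole-number read counts per gene and FPKM values, which are normalized for length and depth. The sources used here do not give the strand, multi-mapping and pair settings of featureCounts. Layout (single-end HCT116, paired-end U-87 MG) may change how repeated and overlapping genes were counted.

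Counts were tested in R 4.3.3 with edgeR 4.0.16 (filterByExpr, TMM, quasi-likelihood F test, Benjamini-Hochberg adjustment), the 6 wild-type libraries in the fit. Displayed CPM use TMM factors over all 12 libraries. Deposited FPKM entered the call limit of 0.5, ranks and the limma 3.58.1 alternatives with pseudocounts of 1 and 0.1; DESeq2 1.42.0 was another alternative, along with other scalings, no filter, each library left out and a replicate block. The test was tried on simulated counts. Where a line had no count, a fold is a lower bound against 3 counts over its libraries; with 1 to 3 counts a ratio with a 95% interval is given. Intervals cover counting error only.

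Gene lists and members were chosen with earlier results of these data known. Named genes were GSTO1, GSTO2 and F3; in each direction the 10 largest differences with FPKM of at least 10 and no overlap; per list of the 4 systems up to 4 called members per direction by adjusted p and 2 uncalled ones by mean CPM; 3 per direction in other lists; all identity genes; and the 6 smallest interaction p-values. Others, among them IFI44L, NLRC5, NFKB1, MAP3K14, F8, F2R, PLAUR, GSTM1, GCLC, GCLM, SLC7A11, NFE2L2, KEAP1, CD68, the interferon ligands, the absent glial markers and the neighbours of CDKN2A, were chosen after their values were seen. Some members of these lists are not reported here. Positions and exon overlaps came from GENCODE release 44, to which 25626 symbols (92.22%) were matched, 1031 through older symbols. Replicate numbers did not pair the libraries: correlations of same-numbered deviations were 0.036, -0.0078 and 0.036.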

Additional observations from a re-analysis of the deposited data

Results flagged for a closer look

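For 6 of the named genes the difference between the lines was not the same in wild-type and in GSTO1 KO cells by an interaction test in edgeR over all 12 libraries, and these 6 had the smallest adjusted p of the genes in the 4 systems. Values are the wild-type line difference minus the KO line difference, HCT116 minus U-87 MG, on the log2 scale. For GAS6 the change was -7.57: the lines stood at 46.3 and 32.6 CPM as wild type and at 45.8 and 0.170 CPM as KO. The other 5 genes belong to the interferon system. The change was -2.14 for OAS3, -2.11 for SLFN5 and -2.69 for IRF9. It was -2.73 for DDX58, whose line difference had opposite signs, -1.52 in wild-type and 1.22 in KO cells. It was -2.93 for IFI6. SLFN5 averaged 20.8 and 216 CPM in the wild-type lines and 88.9 and 213 CPM in the KO lines. The smallest p-values chose these genes, so their size is a description.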

How the results depend on the processing

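Of the 187 genes chosen by the naming rule, none changed direction under the alternatives run, and 174 kept their side of the threshold under all of them. Of 837 counts recomputed, 819 stayed within 1.5 times. With limma on log2(FPKM + 1), 797 genes were over 4-fold higher in HCT116 and 875 in U-87 MG, against 1617 and 1674; this scale understates the change of low genes. Library totals moved the median log2 fold change of all genes from 0.01 to 0.19 and upper-quartile factors to 0.15; with totals 56.5% of calls were higher in HCT116, against 49.0%. Leaving out each library in turn gave 8427 to 8509 calls. With a replicate block 8437 genes were called between wild-type lines (4134 higher in HCT116, 4303 in U-87 MG), 8890 between KO lines and 2693 for the interaction; the numbers do not pair the samples. Of genes with over 50% of their 50-base stretches shared, 67 were called higher in HCT116 and 31 in U-87 MG. Depth limits genes with few counts, such as SERPINF2 and GSTT2.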

Other observations

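Counts and FPKM could be compared in the same libraries. Among 12484 genes with both, the log2 FPKM ratio between the lines exceeded the log2 fold change of the counts by 0.11 at the median, and 199 genes (1.59%) lay more than 2-fold from that shift. Of 7689 called genes, 14 (0.182%) had the opposite sign in FPKM. In the 4 systems 5 genes lay more than 2-fold from the shift: APOBEC3G, BACH1, GSTM1, GSTM2 and PTX3. For BACH1, a repressor of NRF2 targets, counts gave 24.9 CPM in HCT116 and 30.5 CPM in U-87 MG, whereas the deposited FPKM were 1.38 and 0.0682, a log2 ratio of 4.34 against -0.28 in counts. No 50-base stretch of BACH1 is shared with another locus.

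NNT, absent in HCT116 and at 49.9 ± 3.79 CPM in wild-type U-87 MG, averaged 0.941 CPM in the U-87 MG KO libraries. The change of its line difference was -8.96 on the log2 scale (edgeR adjusted p = 0.00013). As wild-type HCT116 had no count, that size depends on how the model treats a group without counts and is not a measured value.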
